A study of Mus musculus with 7 samples.

Results

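The nuclear oxidative phosphorylation genes are the nuclear-encoded subunits of the 5 complexes of the mitochondrial respiratory chain, with a few assembly factors that share their names. They were taken by name, as all symbols that begin with Nduf followed by a, b, c, s or v, with Uqcr, with Cox4 to Cox8 or with Atp5, together with Sdha, Sdhb, Sdhc and Sdhd. This gave 92 of the 32531 symbols in the tables: 38 named for complex I, 4 for complex II, 8 for complex III, 18 for complex IV, 17 for complex V and 7 complex I assembly factors. Cox7a2l, Atp5s and Atp5sl match these names but were not classed as subunits. They are kept in the counts and medians of complexes IV and V. The rule uses names and no measured values, though it was set with earlier results of these data known. Of the 92 genes, 90 passed the filter on low counts. Cox8c, a testis isoform, was listed at 0 counts in every library, and Atp5l, the g subunit of complex V, had between 4 and 22 counts per library.

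The respiratory chain passes electrons from NADH (complex I) and succinate (complex II) through complex III to complex IV, which reduces oxygen, and complex V makes ATP from the proton gradient that results. All of complex II and most subunits of the others are encoded in the nucleus. The catalytic core of complex IV and parts of complexes I, III and V come from the mitochondrial genome, and 0 of those mitochondrially encoded symbols were in the tables. In the brain the pathway supplies most ATP, and in ependymal cells, which line the ventricles, mitochondria lie beneath the motile cilia.

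All libraries came from adult mice of 1 line, Dcdc2a-TRAP ES2575, which carries the Dcdc2a-EGFP/Rpl10a transgene: EGFP is joined to the ribosomal protein Rpl10a and follows the expression of Dcdc2a. The tissue around the ventricles was dissected and homogenised. Polysomes with the tag were captured with antibodies to EGFP, which gave 3 libraries of ribosome-bound RNA (IP 1, IP 3 and IP 4), and total RNA gave 4 libraries (Input 1 to Input 4). Both groups carry the transgene, and there is no sample without it, so RNA that binds the beads without the tag was not measured. Sex, exact age and the number of animals in a library are not given in the labels. An IP numbered 2 was not analysed here. P-values measure only the spread between these libraries, which may be technical.

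IP 1 stood apart from the other IP libraries. The 10 ependymal markers listed (among them Foxj1, the regulator of motile cilia) summed to 217 counts-per-million (CPM) in IP 1, 2706 in IP 3 and 2296 in IP 4, against 27.0 to 50.9 in the Inputs. Dcdc2a itself, the gene that the tag follows, had 43.6, 411 and 175 CPM in the IPs and 27.7 to 73.9 in the Inputs (log2 fold 2.21 ± 0.63 SE, edgeR adjusted p = 0.0743). The 10 vascular and mural markers summed to 56.3, 790 and 360 CPM in the IPs and to 26.8 to 45.8 in the Inputs. Gene counts per library were 37203427 to 52175180, at which 3 counts correspond to 0.0575 to 0.0806 CPM, counting error only. Reads aligned to more than 1 place made up 19.8% of all reads in IP 1, 29.6% in IP 3 and 39.3% in IP 4, against 20.9% to 21.2% in the Inputs. Reads in no gene made up 18.4% in IP 1, 8.85% in IP 3 and 8.15% in IP 4, against 15.2% to 18.2% in the Inputs. Results are therefore given library by library, and with and without IP 1. Strings of values follow the order IP 1, IP 3, IP 4 for the IPs and 1 to 4 for the Inputs.

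Promoter sequences are shown for 3 members on which the results below turn: Cox6a1 and Atp5g1, common subunits with low IP values, and Cox6b2, a testis isoform with high values in IP 3 and IP 4. Each is the part of the 250 bases before the RefSeq start (GRCm38.p6) that no annotated exon covers, on the gene's own minus strand. Capitals mark the core of the site of NRF1, a known activator of respiratory chain genes, searched as GCGCANGCG on both strands. The coordinates are chr5:115348982-115349129 for Cox6a1, chr11:96075671-96075881 for Atp5g1 and chr7:4753095-4753225 for Cox6b2.
Cox6a1: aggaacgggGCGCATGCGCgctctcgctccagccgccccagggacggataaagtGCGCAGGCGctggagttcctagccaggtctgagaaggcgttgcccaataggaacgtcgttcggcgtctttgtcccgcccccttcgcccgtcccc
Atp5g1: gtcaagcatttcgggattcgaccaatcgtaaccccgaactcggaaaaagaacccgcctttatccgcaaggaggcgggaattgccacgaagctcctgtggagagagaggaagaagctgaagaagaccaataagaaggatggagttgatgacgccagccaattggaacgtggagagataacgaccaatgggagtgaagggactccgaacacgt
Cox6b2: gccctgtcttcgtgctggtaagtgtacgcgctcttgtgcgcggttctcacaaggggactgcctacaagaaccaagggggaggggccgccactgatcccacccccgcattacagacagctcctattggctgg

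The Cox6a1 stretch held 3 matches to the NRF1 core, of which the first 2 overlap as forward and reverse readings of 1 run of letters. The Atp5g1 and Cox6b2 stretches held 0. The promoter table had 82 windows of 300 bases (250 before the start to 50 after) for 76 of the 92 members. The NRF1 core was in 28% of these windows, against 6.25% of all 32851 windows of the same length. The ETS core CCGGAAG, the letters that GABP binds, was in 20.7% against 8.86%, and the YY1 core AAGATGGCG in 11.0% against 1.40%. The GC box GGGCGG was in 42.7% against 35.7% and the TATA box TATAAA in 9.76% against 13.6%. These are matches of letters on either strand, and windows of 1 gene can overlap.

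Read levels between genes can be compared only per length, so CPM was divided by the length of the shortest consensus coding transcript in kilobases. On that scale Atp5b, the catalytic beta subunit of complex V, was highest in Input with 1539 ± 239 CPM per kilobase (SD, n = 4). Cox6a1, a small subunit of complex IV, was the next at 678 ± 50.9, followed by Cox4i1 at 460 ± 39.9 and Cox8a at 450 ± 108. The last 2 did not differ beyond their spread. Atp5b stood far above Atp5a1, the alpha subunit, which had a mean of 227 CPM per kilobase in Input, although both enter the enzyme in equal number. Exons of Atp5a1 overlap those of Haus1, which makes its level uncertain.

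Some low levels coincided with copies elsewhere in the transcriptome. Reads with several placements were not counted to genes, and 17 of the 92 members shared at least 10% of their 50-base stretches with other annotated genes. Atp5g2, 1 of 3 genes for the c subunit of complex V, shared 87.4% and had 0.291 to 1.89 CPM in the 7 libraries. Its fellow Atp5g3 shared 0 and had 95.0 to 227 CPM. Atp5l shared 68.5%, Ndufa12 53.8% and Cox7c 53.0%. Among 74 common subunits, the median Input level was 112 CPM per kilobase for the 58 with under 10% shared, 57.9 for the 12 with 10% to 50% and 17.9 for the 4 above. The levels of these 16 subunits, and of Cox7a2l (17.8%), are uncertain. Exons of 32 members overlap those of another gene model, which makes their counts uncertain too because the strand setting is unknown. Reads that fell in several genes, which were not counted, made up 1.51% to 2.01% of reads in the IPs and 9.33% to 12.9% in the Inputs. The uncertainty may therefore differ between the groups, and its part in the folds of overlapping members was not tested. Among genes named below, the overlapping members include Ndufs1 (with Eef1b2), Ndufa13 (Tssk6), Ndufa3 (Tfpt), Uqcrc2 (Pdzd9), Atp5d (Cbarp) and Cox6c (Vps13b). Cox6a1 (12.3%) and Atp5g1 (11.1%) are just past the limit of 10%.

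No member was called different between IP and Input. Of 90 tested, 0 were called higher and 0 lower (edgeR's quasi-likelihood test, Benjamini-Hochberg adjusted p under 0.05 over 17375 genes), where the shares called among all tested genes were 3.64% (higher) and 2.16% (lower). With an unadjusted p under 0.05, 3 members had higher and 10 had lower values, where the shares of all genes were 13.3% and 9.4%. The median log2 fold of the 90 was -0.14, against 0.06 over all tested genes, and 56 of the 90 had a negative fold. Every IP library lay below every Input for 12 of 90 members (10.4% of all genes) and above every Input for 2 of 90 (9.55% of all genes). The first share is near the background and the second below it. With the replicate block (lane as a term) 0 members were called, and the calls over all genes went from 633 to 96 higher and from 376 to 33 lower. In whole-tissue RNA and in the IP, fewer cells of a type and less RNA per cell cannot be told apart.

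The 3 IP libraries did not show the same picture. Against the Input sequenced on the same lane, the median log2 ratio of CPM (after adding a prior count of 2) over the 90 members was -0.68 in IP 1, 0.09 for IP 3 and -0.29 for IP 4. IP 1 had 68 members below its lane's Input, IP 3 had 38 and IP 4 had 63. Complex IV had medians of -1.26, 0.00 and -0.89, the lowest of the complexes in IP 1 and in IP 4. Complex I had -0.69, 0.15 and -0.20, complex III -0.73, 0.00 and -0.46, and complex V -0.61, 0.25 and -0.23. The 4 complex II genes had -0.32, 0.11 and 0.36. IP 1 had the lowest median for complexes I, II, III, IV and V, and IP 3 had rounded medians of 0.00 or above for all of them. IP 4, whose ependymal marker sum was near that of IP 3, had medians between the other IPs except in complex II, where it was the highest. The 7 assembly factors had 0.03, -0.03 and -0.21. Against the mean Input the median over the 90 members was -0.78, 0.13 and -0.17. On that scale complex IV had -1.40, 0.03 and -0.63, and complex I -0.78, 0.23 and -0.06. Complexes III and V had -0.87, 0.05 and -0.11, and -0.55, 0.31 and -0.08. Complex II had -0.07, 0.10 and 0.02, and the assembly factors -0.03, 0.15 and -0.30. The low medians of IP 4 in complexes I, III, IV and V were thus smaller in size than against Input 4.

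**Figure D1:**
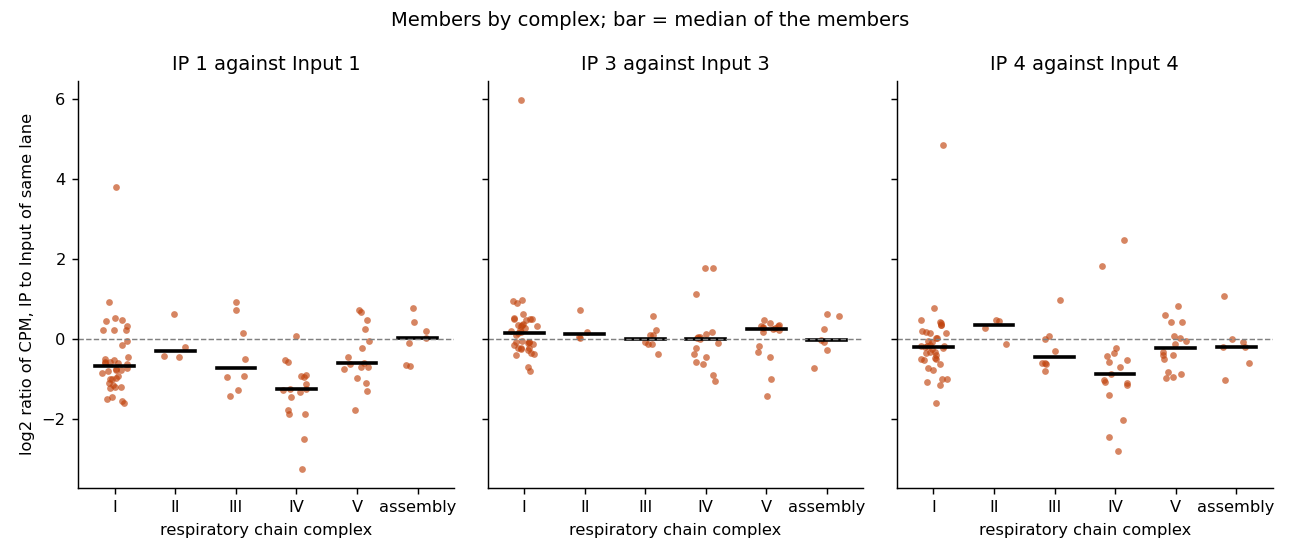
Log2 ratio of CPM in each IP library to the Input of the same lane, for the 90 tested members grouped by complex (x axis); each point is a member and each bar the median of its group. The complex IV bar lies at -1.26 in IP 1, 0.00 in IP 3 and -0.89 in IP 4, and the high point in complex I is Ndufa4l2.

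Without IP 1 there were 9 calls in place of 0. Higher were Ndufa4l2, Cox6b2, Sdhc, Atp5d and Ndufaf3, and lower were Atp5g1, Cox6a1, Cox7a2l and Ndufa5, among 91 members tested. In that fit 12.5% of all genes were called higher and 9.55% lower, so 5 and 4 of 91 are smaller shares than the background. The median member fold was then 0.03. Without IP 3, 0 members were called higher and 8 lower (Cox6a1, Cox6c, Cox7a2l, Ndufa1, Ndufa3, Ndufa4, Ndufa5 and Ndufa6), where 1.91% of all genes were higher and 1.98% lower. The 8 of 91 are a larger share than that background, and the median fold was -0.43. Cox6a1, Cox7a2l and Ndufa5 were called lower in both of these fits. Without IP 4 or any 1 Input 0 members were called. Calls over all genes were few in those fits too, with 10 higher and 19 lower without IP 4. DESeq2 on all 7 libraries called Ndufa4l2 higher and Atp5g1, Cox6a1, Cox7a2l, Ndufa5 and Ndufa6 lower, where it called 8.03% of all genes higher and 5.54% lower, so 1 of 90 is a smaller share than the background and 5 of 90 about equal to it.

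Complex I takes electrons from NADH. Its nuclear core subunits, which hold the flavin and the iron-sulfur clusters or line the path to ubiquinone, had a median log2 fold of 0.17, and 0 were called. Ndufv1, which binds the flavin, had a log2 fold of 0.04, and Ndufs1 of 0.34. Ndufs1, the largest of them, had 176 CPM in IP 1, 84.2 in IP 3 and 87.1 in IP 4, and 87.6 to 96.2 in the Inputs. Only IP 1 was above the Input range for this gene. The fold of Ndufs1 was -0.10 without IP 1, and that of Ndufv1 was -0.12.

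The 29 supernumerary subunits of complex I, which surround the core and are needed for its assembly and stability, had a median log2 fold of -0.15, with 20 of 29 negative and 0 called. Without IP 1 that median was 0.05. Ndufa5, part of the arm that reaches into the matrix, had 38.8, 61.8 and 26.8 CPM in the IPs and 71.1, 83.0, 109 and 81.6 in the Inputs. Every IP was below every Input (log2 fold -1.02 ± 0.30 SE, edgeR adjusted p = 0.0750). With offsets for GC content and transcript length in the fit, the log2 fold of Ndufa5 was -0.48 (edgeR adjusted p = 0.276). Ndufa6, another accessory subunit of that arm, had 17.9, 44.4 and 26.1 CPM in the IPs and 53.2, 50.1, 73.3 and 52.4 in the Inputs. Its groups did not overlap either (log2 fold -0.96 ± 0.32 SE, edgeR adjusted p = 0.112). Ndufa13 and Ndufa8 also had every IP below every Input, with log2 folds of -0.55 and -0.48. Ndufs4, an accessory subunit whose loss in mice causes a Leigh-like encephalopathy, had the highest fold of the 29 (0.44 ± 0.22 SE, edgeR adjusted p = 0.271), with 80.4, 113 and 93.7 CPM in the IPs against 56.0 to 81.9 in the Inputs. Ndufa10, a subunit of the membrane arm, had 168 to 213 CPM in the IPs and 179 to 242 in the Inputs.

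Ndufa4 carries a complex I name but is now placed in complex IV. It had 57.5, 137 and 85.3 CPM in the IPs and 159, 138, 166 and 181 in the Inputs. The highest IP and the lowest Input nearly met, which gave -0.79 ± 0.28 as log2 fold (SE, edgeR adjusted p = 0.128). Ndufa4l2, its relative, is known to be induced by hypoxia and to mark pericytes. It had 46, 444 and 244 counts in the IPs and 1, 38, 4 and 5 in the Inputs. On the CPM scale these are 0.921, 9.78 and 4.76 against 0.0245, 0.849, 0.109 and 0.123. Every IP was above every Input, IP 1 narrowly so (log2 fold 4.20 ± 1.23 SE, edgeR adjusted p = 0.0737). Input 2 held most of the few Input counts, and the log2 fold was 5.87 without Input 2. Without IP 1 the gene was called (log2 fold 4.69, edgeR adjusted p = 0.00557), and DESeq2 called it on all libraries (adjusted p = 0.00286). Reads of Ndufa4l2 are uncertain because the gene overlaps Shmt2 on the other strand. Of the 10 vascular and mural markers, 4 were called higher (Vtn, Acta2, Col1a1 and Cdh5), and Vtn had 14.6, 239 and 90.0 CPM in the IPs against 3.61 to 8.02 in the Inputs. Their part in the Ndufa4l2 values was not tested.

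Complex II oxidises succinate and belongs also to the citric acid cycle. Sdha, the flavoprotein, had 587, 257 and 292 CPM in the IPs and 381, 352, 250 and 213 in the Inputs. Input 1 was the highest Input as IP 1 was the highest IP, and the groups overlapped (log2 fold 0.34 ± 0.31 SE, edgeR adjusted p = 0.583). Sdhb, the iron-sulfur subunit, had a log2 fold of -0.03 and Sdhd, a membrane anchor, of -0.04. Sdhc, the other anchor, had 102 CPM in IP 1, below all Inputs (141 to 171), and 255 and 190 in IP 3 and IP 4, above them. Its log2 fold was 0.22 ± 0.27 (SE, edgeR adjusted p = 0.697) with IP 1 and 0.51 without it (edgeR adjusted p = 0.0389).

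Complex III passes electrons from ubiquinol to cytochrome c. Its 3 larger nuclear subunits, the core proteins Uqcrc1 and Uqcrc2 and the Rieske iron-sulfur protein Uqcrfs1, had positive log2 folds (0.09 to 0.39), and its 5 small subunits negative ones (-0.65 to -0.05), with 0 of 8 called. Without IP 1 the medians of these groups were 0.07 (from 0.37) and -0.05 (from -0.35). Uqcrc2 had 297, 159 and 194 CPM in the IPs and 152 to 186 in the Inputs (log2 fold 0.37 ± 0.23 SE, edgeR adjusted p = 0.386). Uqcrc1 had 149, 68.4 and 123 against 62.8 to 117 (log2 fold 0.39). For both the values of IP 3 were within the Input range. Uqcr10, a small subunit, had 27.1, 69.2 and 63.1 CPM in the IPs and 65.9, 67.2, 90.8 and 111 in the Inputs (log2 fold -0.65 ± 0.34 SE, edgeR adjusted p = 0.284). Uqcrq, another small subunit, had a log2 fold of -0.49. In both of these small subunits IP 1 was the lowest of the 7 libraries.

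In complex IV, which reduces oxygen, all 10 common nuclear subunits had negative log2 folds (-1.08 to -0.26, median -0.52), and 0 were called. Without IP 1 the median was -0.24 and Cox8a had 0.04. All 10 were below the lane's Input in IP 1 and in IP 4, and 5 of 10 in IP 3. Cox6a1, a subunit with a single membrane span, had 104, 273 and 198 CPM in the IPs and 362, 379, 379 and 429 in the Inputs. Every IP was below every Input, with IP 1 the lowest, and the log2 fold was -1.01 ± 0.29 (SE, edgeR adjusted p = 0.0675). Its fold was -0.72 without IP 1 (edgeR adjusted p = 0.00565) and -1.37 without IP 3 (edgeR adjusted p = 0.0303). It was -1.04 without IP 4 (edgeR adjusted p = 0.176), and without any 1 Input the edgeR adjusted p was 0.146 to 0.166. Cox4i1, the common form of the subunit at which ATP inhibits the enzyme, had 166, 294 and 256 CPM against 319, 323, 384 and 345, again with no overlap (log2 fold -0.52 ± 0.22 SE, edgeR adjusted p = 0.185). Cox4i1 overlaps Emc8. Cox7c, with 53.0% of its stretches shared, had the lowest fold of the 10, -1.08 (edgeR adjusted p = 0.139). Cox7a2 and Cox6b1 had log2 folds of -0.59 and -0.43, and Cox8a of -0.34 with 80.3, 291 and 217 CPM against 185 to 325.

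**Figure D2:**
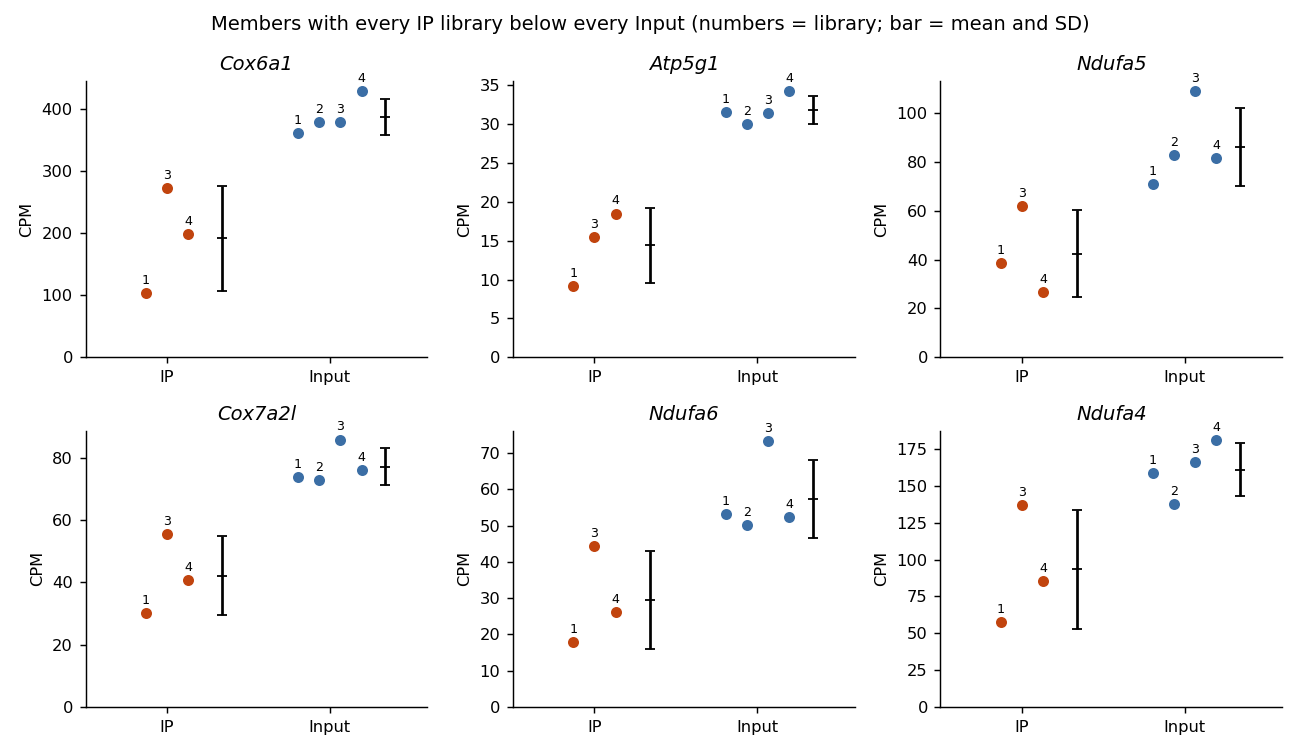
CPM (y axis, from 0) in each IP and Input library for 6 members in which every IP library was below every Input; numbers give the library, and the bars give the mean and SD (n = 3 IP, n = 4 Input). In Cox6a1 the IPs had 104 to 273 CPM and the Inputs 362 to 429, and in Ndufa4 the highest IP (137) and the lowest Input (138) nearly met.

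Cox7a2l is named for complex IV but acts as a factor that joins complexes III and IV into supercomplexes. It had 30.2, 55.5 and 40.9 CPM in the IPs and 74.0, 72.9, 85.9 and 76.1 in the Inputs. The groups did not overlap (log2 fold -0.87 ± 0.24 SE, edgeR adjusted p = 0.0654). It was the only member called when offsets for GC content and transcript length entered the fit (log2 fold -0.78, edgeR adjusted p = 0.0396). In that fit the log2 folds of Cox6a1, Atp5g1, Ndufa6, Ndufa5 and Ndufa4 were -0.79, -0.86, -0.73, -0.48 and -0.36. Each was smaller in size than without the offsets.

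Complex IV has isoforms that replace a common subunit in muscle, testis or lung, and these went different ways. Cox6b2, the testis form of Cox6b1, had 1.46 CPM in IP 1, 27.7 in IP 3 and 24.6 in IP 4, and 2.80, 2.39, 8.14 and 4.42 in the Inputs. IP 1 was below all Inputs and the other IPs were above all of them. With the 7 libraries its log2 fold was 2.01 ± 0.81 (SE, edgeR adjusted p = 0.176), and without IP 1 it was 2.56 (edgeR adjusted p = 0.00106). The ependymal marker sum of IP 1 (217 CPM) was the lowest of the IPs but above all Inputs, and its part in the Cox6b2 values was not tested. Cox7a1, the heart and muscle form, had 0.541, 6.67 and 4.02 CPM against 0.515 to 3.06 (log2 fold 1.26 ± 0.92 SE, edgeR adjusted p = 0.470). Cox4i2, the lung form, had 2, 119 and 50 counts in the IPs and 16 to 47 in the Inputs (log2 fold 0.85, edgeR adjusted p = 0.748). In both of these IP 3 was the highest library and IP 1 low.

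The muscle forms Cox6a2 and Cox8b had the opposite direction. Cox6a2 had 4.63, 5.37 and 2.32 CPM in the IPs and 6.72, 7.49, 10.2 and 9.68 in the Inputs. The groups did not overlap (log2 fold -1.05 ± 0.46 SE, edgeR adjusted p = 0.209). This gene overlaps Itgad. Cox8b had 0.601, 1.34 and 0.312 CPM against 1.31 to 2.33 (log2 fold -1.28). Cox7b2, a testis form, was near the detection limit, with 0 to 0.132 CPM in the IPs and 0.268 to 0.688 in the Inputs (log2 fold -2.68 ± 1.49 SE, edgeR adjusted p = 0.325).

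**Figure D3:**
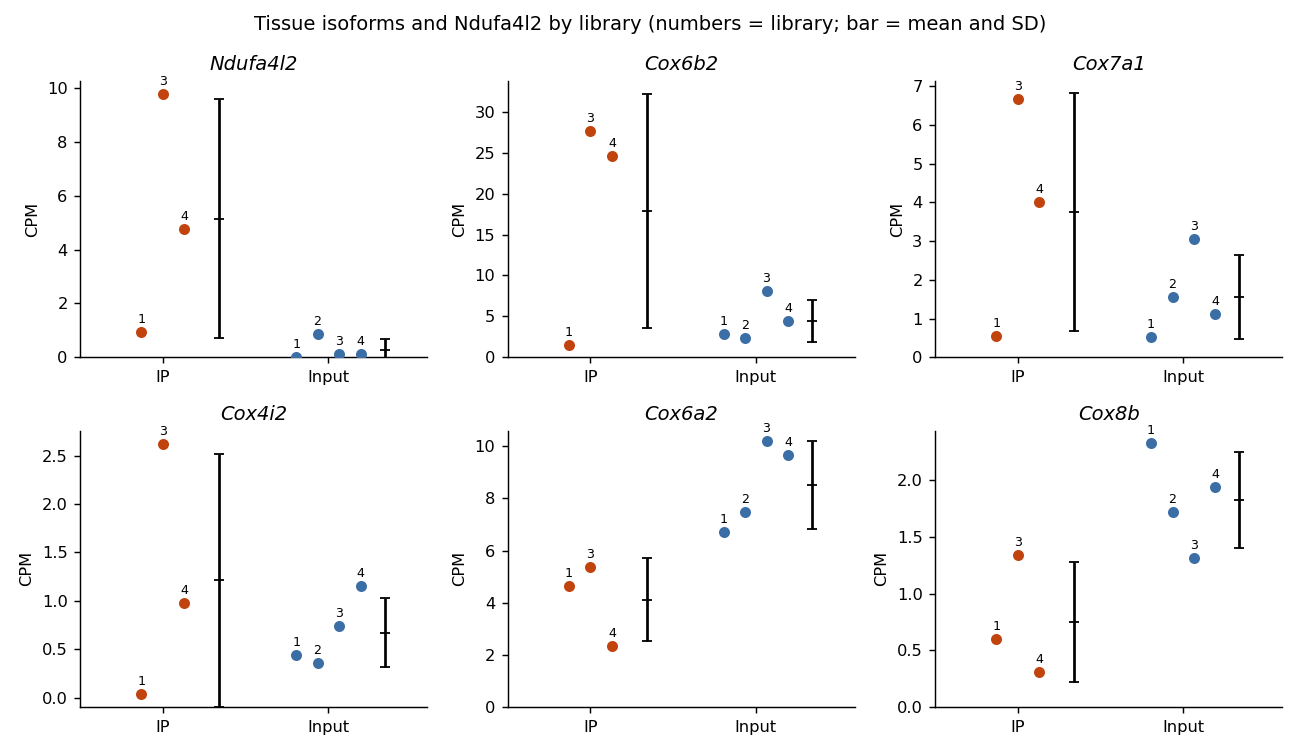
CPM (y axis) of Ndufa4l2 and 5 tissue isoforms of complex IV in each IP and Input library; numbers give the library, and the bars give the mean and SD (n = 3 IP, n = 4 Input). In Cox6b2 IP 3 (27.7) and IP 4 (24.6) lay above all Inputs and IP 1 (1.46) below them, and in Cox6a2 every IP lay below every Input.

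Complex V makes ATP. The 5 subunits of its F1 part, which holds the catalytic head and the central stalk, had log2 folds from -0.01 to 0.44, with 0 called. Atp5b had 4071, 2356 and 3287 CPM in the IPs and 3422, 3246, 2668 and 2460 in the Inputs, so IP 3 was the lowest and IP 1 the highest of all (log2 fold 0.13 ± 0.22 SE, edgeR adjusted p = 0.778). Atp5a1 had 928, 651 and 710 CPM against 469 to 666 (log2 fold 0.44 ± 0.20 SE, edgeR adjusted p = 0.214), and it overlaps Haus1. Atp5d, the delta subunit of F1, had 107, 177 and 244 CPM against 138 to 148, with IP 1 below and the others above all Inputs. Its log2 fold was 0.29 with IP 1 (edgeR adjusted p = 0.560), 0.54 without it (edgeR adjusted p = 0.0268) and -0.02 without IP 4.

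Of the 9 tested subunits of the membrane part and peripheral stalk of complex V, 7 had negative log2 folds and 0 were called. Their median was -0.15, and 0.07 without IP 1. Atp5g1, which encodes the c subunit of the rotating ring, had 9.15, 15.5 and 18.5 CPM in the IPs and 31.6, 30.0, 31.5 and 34.3 in the Inputs. No IP reached the lowest Input, and the Inputs were close together (14.4 ± 4.77 CPM, n = 3, against 31.9 ± 1.82, n = 4). The log2 fold of -1.15 ± 0.30 (SE) had the smallest p of the 90 members and missed the threshold (edgeR adjusted p = 0.0522). With RLE size factors the value was 0.0484, with a minimum mean of 1 CPM 0.0478, and with the replicate block 0.162. Atp5g3 encodes the same mature protein, had more RNA (95.0, 224 and 171 CPM against 160 to 227) and a smaller log2 fold (-0.16 ± 0.28 SE, edgeR adjusted p = 0.795). Whether the folds of Atp5g1 and Atp5g3 differ was not tested. Atp5f1, the b subunit of the stalk, was the only member besides Ndufa4l2 with every IP above every Input (146, 149 and 121 CPM against 106 to 116, log2 fold 0.31 ± 0.17 SE, edgeR adjusted p = 0.320). It overlaps Wdr77 and shared 23.2% of its stretches. Atp5j2, the f subunit, had a log2 fold of -0.63.

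Across complexes, most core subunits had positive folds and most others negative ones. This grouping was made after the values were seen, so it is given without a test. Of 17 core subunits (complex I core, Sdha and Sdhb, the complex III core and F1), 15 had positive folds, with a median of 0.17. Of 53 tested small, supernumerary, membrane and peripheral stalk subunits of complexes I, III, IV and V, 11 had positive folds, with a median of -0.27. Against the lane's Input the core medians were 0.23, 0.16 and 0.34 in the IPs and those of the other subunits -0.94, 0.09 and -0.50. Against the mean Input the core medians were 0.17, 0.11 and 0.13 and those of the other subunits -1.03, 0.19 and -0.28. The groups lay apart in IP 1 and IP 4 (less so in IP 4 against the mean Input) and close together in IP 3. Without IP 1 the median folds of the groups were 0.08 and -0.04. The median transcript was 1363 bases long in the core group and 618 in the other.

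**Figure D4:**
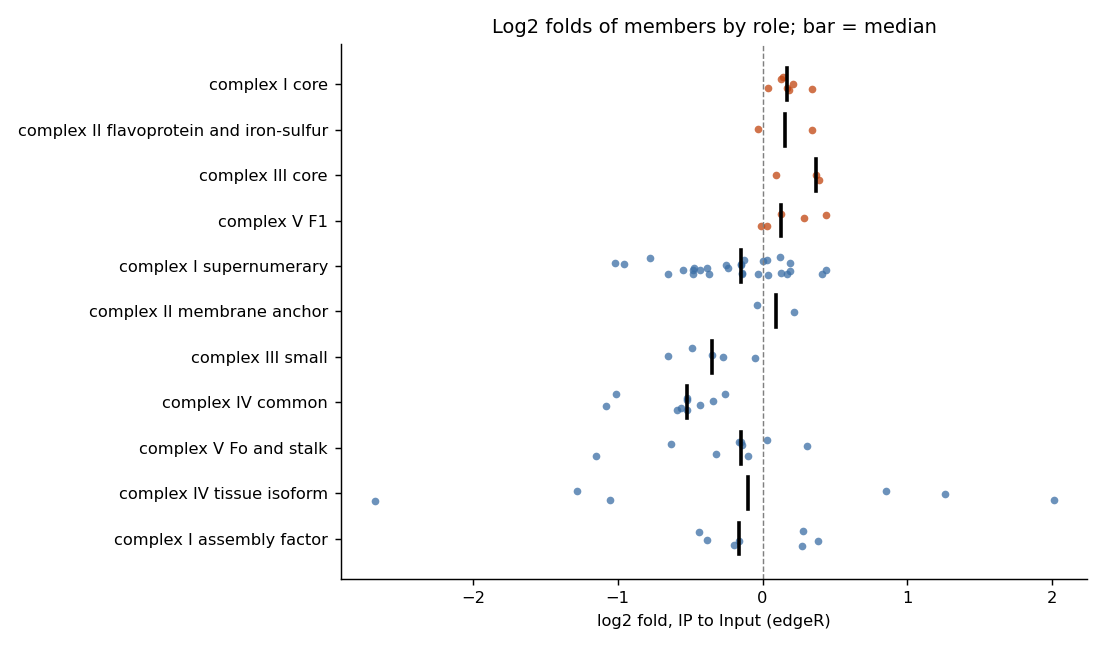
Log2 fold of IP to Input (x axis, edgeR, all 7 libraries) for tested members grouped by role (y axis); red points are core subunits, blue points are other roles, and bars are group medians. The complex I core bar lies at 0.17, and all 10 common complex IV subunits are at or below -0.26.

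Transcript length moved with the ratios in the same libraries. Among 32 members of up to 600 bases the median lane ratios of the IPs were -1.08, 0.09 and -0.68. Among the 17 of over 1200 to 2000 bases they were 0.23, -0.03 and 0.06. Across the 90 members, Spearman's rho of length with the lane ratio was 0.59, 0.00 and 0.54, as a description of genes that share their libraries. Across 15665 tested genes with a length it was 0.21, -0.02 and 0.04, and the 496 of up to 600 bases had medians of -0.64, -0.23 and -0.64. The Inputs varied with length as well: the log2 ratio to the mean Input had medians of -0.15, -0.22, 0.12 and 0.22 over the short members. Spearman's rho of length with that ratio over the 90 members was 0.39, 0.51, -0.31 and -0.58 in the Inputs. In the IPs it was 0.67, -0.05 and 0.29, so the value of IP 4 depended on the Input used. With offsets for GC content and length in the fit the median member fold was 0.06 in place of -0.14, against 0.03 for all genes.

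**Figure D5:**
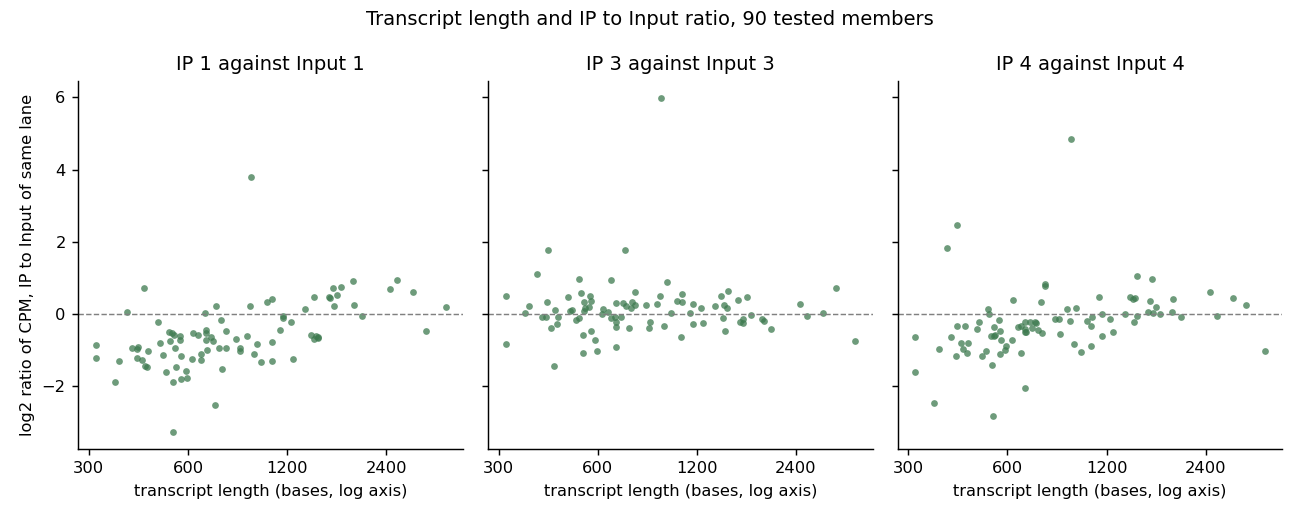
Log2 ratio of CPM in each IP library to the Input of the same lane (y axis) against transcript length in bases (x axis, log scale) for the 90 tested members. Members of up to 600 bases have medians of -1.08 in IP 1, 0.09 in IP 3 and -0.68 in IP 4.

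The 7 complex I assembly factors, which build the enzyme but do not remain in it, had log2 folds from -0.44 to 0.38 with 0 called. Ndufaf4 had 49.4, 33.5 and 30.5 CPM against 42.9 to 62.2 (log2 fold -0.44), and Ndufaf5 a log2 fold of -0.38. Ndufaf7 had 0.28. Ndufaf3 had 34.4, 76.9 and 93.3 CPM against 44.6 to 60.0, with IP 1 below and the others above all Inputs (log2 fold 0.38 ± 0.31 SE, edgeR adjusted p = 0.521, and 0.0213 without IP 1). It overlaps Impdh2.

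Other mitochondrial genes gave a background for these values. Of 9 tested respiratory chain genes outside the name patterns, 0 were called and the median log2 fold was -0.55 (-0.25 without IP 1). Cycs, cytochrome c, had 2.52, 4.45 and 2.15 CPM in the IPs against 7.0 to 11.6 (log2 fold -1.61 ± 0.47 SE, edgeR adjusted p = 0.0736), and Higd1a, a hypoxia-induced factor of the chain, -0.90 on the same scale (edgeR adjusted p = 0.0788). Of 39 tested assembly factors from a separate list, 0 were higher and 1 lower: Coa5, needed for complex IV assembly, had 111, 179 and 129 CPM against 342 to 433 (log2 fold -1.50 ± 0.21 SE, edgeR adjusted p = 0.0117, and 0.0443 with the replicate block). Cox17, which delivers copper to complex IV, had -1.06 as log2 fold (edgeR adjusted p = 0.0735). Of 24 tested genes of mitochondrial import 1 was lower, Tomm20, a receptor of the outer membrane, with 229, 221 and 212 CPM against 484 to 602 (log2 fold -1.34 ± 0.17 SE, edgeR adjusted p = 0.00801, and 0.0506 with the replicate block). These calls moved just past the threshold of 0.05 when some single libraries were left out. Coa5 had an edgeR adjusted p of 0.0524 without IP 4 and 0.0513 to 0.0567 without any 1 Input. Tomm20 had an edgeR adjusted p of 0.0503 without IP 4 and 0.0567 without Input 3. Calls over all genes fell in these fits too, from 633 higher and 376 lower to 10 and 19 without IP 4. Without Input 3 they were 4 and 16. Timm9 of the same list had a log2 fold of -0.97 (edgeR adjusted p = 0.0538).

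The citric acid cycle and pyruvate dehydrogenase had a median log2 fold of 0.37 over 17 genes. Of the 17, 1 was called higher, 0 lower, and 7 had every IP above every Input. Over all tested genes 3.64% were called higher, 2.16% lower, and 9.55% had every IP above every Input. The called gene was Suclg2, a subunit of succinyl-CoA ligase, with 10.2, 19.2 and 19.9 CPM against 2.51 to 6.67 (log2 fold 1.71 ± 0.44 SE, edgeR adjusted p = 0.0492, and 0.204 with the replicate block). Leaving out any library but IP 1 ended the Suclg2 call (edgeR adjusted p from 0.0971 to 0.171). Dlat, part of pyruvate dehydrogenase, had 228, 268 and 222 CPM against 149 to 171 (log2 fold 0.60 ± 0.17 SE, edgeR adjusted p = 0.0637). The median of these 17 was positive in each IP against its lane's Input (0.50, 0.17 and 0.41), and their median transcript was 2518 bases long. Without IP 1 the median fold was 0.16. The 17 glycolysis genes had 0 called and a median of 0.24 (0.00 without IP 1), with Gapdh at 0.78 and Pfkl at 0.61 by the smallest p. The 76 tested mitochondrial ribosomal proteins had 0 called and a median of -0.05, and the 15 regulators of mitochondrial genes 0 called and 0.02. By the smallest p these lists gave Mrps15 (-0.78) and Mrps31 (0.72), and Esrra (-0.96) and Esrrg (-0.40).

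Cytosolic ribosomal proteins, a further set of short transcripts (median 680 bases), had a median log2 fold of -0.53 over 84 tested genes, with 0 higher and 3 lower (Rpl4, Rplp1 and Rps15a), and 0 lower with the replicate block. Their lane medians were -1.0, -0.39 and -0.75, lowest in IP 1 as for the respiratory chain. The 87 listed ribosomal genes summed to 1415 to 2659 CPM in the IPs and 2947 to 3262 in the Inputs. Copies of these genes were not searched for, so their counts are uncertain. The part of uncounted reads with several placements in their folds was not tested. Of the cell type markers, 9 of 10 ependymal genes were called higher, 0 of 10 neuronal genes either way, 2 of 8 oligodendrocyte genes lower (Mbp and Mobp), 1 of 7 astrocyte genes higher (Gfap), 1 of 10 choroid plexus genes higher (Calml4) and 0 of 8 microglial genes either way. With the replicate block 5 ependymal genes and 0 of the other marker genes were called. In each of these marker lists 0 genes were at 0 in all libraries. Without IP 4 or any 1 Input the calls of the 3 ribosomal genes, Mbp, Mobp, Gfap and Calml4, and of the 4 vascular and mural genes, were lost as well. Of the 9 ependymal calls 1 was left without IP 4, Input 1 or Input 2, and 0 without Input 3 or Input 4, at medians of 5.06 to 5.52. The summed level of the 10 neuronal markers was 8470 to 12130 CPM in the IPs and 10439 to 13526 in the Inputs. The part of the mixture of cells in the values of the respiratory chain was not tested.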

How the data were processed

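RNA from tagged ribosomes (IP, 3 libraries) and total RNA (Input, 4 libraries) was measured. The authors deposited whole-number counts per gene symbol, made with STAR 2.0.0e and HTSeq on mm10, per the submitters' processing notes. Strand setting and annotation were not given in the sources used here. Lines for reads in no gene, several genes or several places (40.1% to 52.1% of reads) were left out. Counts were filtered (edgeR 4.0.16 in R 4.3.3, filterByExpr, minimum count 10, minimum total 15) and scaled by TMM. IP was tested against Input with the quasi-likelihood test, group as the only term, adjusted over 17375 genes. SE is the log2 fold over the square root of F. On simulated counts it recovered 47 of 50 genes changed 2-fold up, with 5 false calls among 17274. The simulation gave every gene the same dispersion and set no library apart. It therefore does not measure how often a 2-fold change would be called in these libraries. Alternatives were a lane block, RLE and total-count scaling, DESeq2 1.42.0, other filters, GC and length offsets, and leaving out each library. Same-numbered libraries shared a sequencing lane, and their deviations correlated at 0.032, 0.043 and 0.026 across genes. All 92 members matched GENCODE M21, which gave lengths, copies and overlaps. Rps6k kinases were dropped from the ribosomal protein list.

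Members and gene lists were chosen with earlier results of these data known. Genes named were Atp5g1, Cox6a1, isoform sets, all Sdh genes, per complex the member with the highest mean and the 2 extreme folds each way, and per list the 2 smallest p. Calls of a list, Ndufs1, Ndufv1, Ndufa1, Ndufa3, Ndufa8, Ndufa13, Ndufa12, Cox6c, Cox7c, Atp5d and Atp5l were named after their values were seen. A member that is not reported here entered counts and medians only.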

Additional observations from a re-analysis of the deposited data

Results flagged for a closer look

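In the 4 Inputs, 3 of the members named above had 1 library far from the others (Dixon's test at the 95% level, which chance passes in about 1 of 20 groups). Members that are not named can pass too and are not listed. Ndufa4l2 had 0.849 CPM in Input 2, Ndufa6 had 73.3 CPM in Input 3 and Sdhd had 164 CPM in Input 1. Reads aligned to more than 1 place, which enter no gene count, made up 29.6% of reads in IP 3 and 39.3% in IP 4, above the Inputs at 20.9% to 21.2%.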

How the results depend on the processing

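The count of 0 members called higher became 1 with DESeq2 and 5 without IP 1, and that of 0 called lower became 1 with RLE size factors, a mean CPM of at least 1, or GC and length offsets, and 5 with DESeq2. Leaving out 1 library gave 0 to 5 higher and 0 to 8 lower members, and 4 to 2259 higher and 16 to 1724 lower genes in all, against 633 and 376. With the replicate block 0 members were called, and 96 genes were higher and 33 lower (92 and 29 on the 3 complete lanes, 109 and 37 with GC and length offsets as well). DESeq2 called 1396 genes higher and 962 lower. The complex III median was -0.60 without IP 3 (-0.16 with it, and -0.60 to 0.06 over all libraries left out in turn).

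Signs of small folds turned, and the cause was not tested. Under GC and length offsets Atp5g2 had 0.34, Atp5g3 0.06, Sdhb 0.03, Sdhd 0.06, Ndufa12 0.11 and Ndufv1 -0.02. With offsets and the replicate block Atp5g3 had 0.02, Cox4i2 -0.28, Sdhb 0.07, Sdhd 0.04, Ndufa12 0.08 and Ndufv1 -0.08. With the block alone Cox4i2 had -0.41, Sdhb 0.02 and Ndufv1 0.00 (-0.42, 0.02 and -0.01 on complete lanes). With total counts Sdhb had 0.02. With 1 library left out, folds ranged for Atp5b from -0.07 to 0.31 (turned without IP 1), Atp5d from -0.02 to 0.54 (turned without IP 4), Atp5g2 from -0.68 to 0.16 (turned without IP 3, Input 4), Atp5g3 from -0.46 to 0.11 (turned without IP 1), Cox4i2 from -0.40 to 1.41 (turned without IP 3), Cox8a from -0.74 to 0.04 (turned without IP 1), Ndufa12 from -0.40 to 0.05 (turned without IP 1), Ndufs1 from -0.10 to 0.50 (turned without IP 1), Ndufv1 from -0.12 to 0.13 (turned without IP 1), Sdha from -0.13 to 0.54 (turned without IP 1), Sdhb from -0.15 to 0.06 (turned without IP 1, Input 1), Sdhc from -0.11 to 0.51 (turned without IP 3) and Sdhd from -0.12 to 0.05 (turned without IP 4, Input 1). Depth limits Cox7b2, Cox4i2, Atp5l and Ndufa4l2.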
